A study of Mus musculus with 10 samples.

Results

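Lin28a, Lin28b, Hmga1, Hmga2, Igf2bp1, Igf2bp2, Igf2bp3 and Trim71 are genes of the embryo and fetus that most adult tissues keep low and many tumours use again, for which they are called oncofetal. The 8 were taken by name, and each was represented by its probe set with the highest mean over all arrays. A probe set with 1 gene name was found for 6 of the 8, among 19938 genes in all. Hmga1 and Igf2bp2 were not analysed here. Igf2bp1 had 2 probe sets and each of the other 5 genes had 1.

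These genes are tied together by the let-7 microRNAs. Lin28a and its paralogue Lin28b are RNA-binding proteins that hold back the maturation of let-7, and let-7 in turn represses the mRNAs of Lin28a, Lin28b, Hmga2, Trim71 and Igf2bp genes, so that let-7 and its targets tend to exclude each other. Trim71 is a ubiquitin ligase and mRNA repressor of stem cells and of the early embryo, Hmga2 is a chromatin protein that binds AT-rich DNA and is known for sustaining self-renewal of fetal neural stem cells, and the Igf2bp proteins bind mRNAs and govern their stability and transport. In the developing brain Lin28 genes and Hmga2 are known to decline as progenitors age and let-7 accumulates.

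Mouse embryonic stem (ES) cells, neural stem cells (NSC) grown from them and NSC of the brain were compared in the study, with 1 Affymetrix whole-transcript array for each of 2 biological replicates in 5 groups. The mESC group was the R1 line, derived originally from the 129/Sv strain, kept on inactivated embryonic fibroblast feeders with 15% serum and 1000 U/ml Lif, a cytokine that keeps mouse ES cells undifferentiated. The p-NSC_L group was primary spheres of primitive NSC formed from those ES cells in serum-free N2 medium with 1000 U/ml Lif, and p-NSC_LF was such spheres passaged in 1000 U/ml Lif, 10 ng/ml FGF and 2 μg/ml heparin. The d-NSC group was definitive NSC obtained by passaging primitive NSC in N2 and B27 with 20 ng/ml FGF, 20 ng/ml EGF and 2 μg/ml heparin, with no Lif stated. The CNS-NSC group was wild-type NSC from the frontal brain of E11.5 embryos of the ICR strain, grown in N2 with FGF, EGF and heparin as in d-NSC and no B27 stated. The labels state no altered gene, they call mESC R1 and both primitive groups and d-NSC R1-derived, and the sources used here do not give the number of embryos behind CNS-NSC.

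The sequences that link the genes are short. The mature let-7 strands share bases 2 to 8, the seed with which a microRNA finds its targets, shown in capitals below. They are given as RNA, 5′ to 3′, from the RefSeq table of build GRCm38.p6, beside miR-125b, another microRNA known to repress Lin28a.
let-7a: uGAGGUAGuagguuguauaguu
let-7b: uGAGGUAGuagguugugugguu
let-7c: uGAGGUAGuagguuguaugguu
let-7g: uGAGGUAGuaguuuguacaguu
miR-98: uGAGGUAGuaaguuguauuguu
miR-125b: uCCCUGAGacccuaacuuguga
The seed GAGGUAG was carried by 11 of 1679 mature mouse microRNAs in the table (0.66%), and the miR-125 seed CCCUGAG by 5 (0.3%).

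Lin28 proteins recognise the 4 bases GGAG in the loop of a let-7 precursor, between its 5′ and 3′ arms. The motif lay in the loop of 9 of the 12 let-7 and miR-98 hairpins (75%), against 52 of 644 hairpins with both arms listed (8.07%), searched on the RNA strand alone. The hairpins of Mirlet7a-1 (chr13:48538179-48538272, minus strand), Mirlet7c-1 (chr16:77599657-77599750, plus strand) and Mirlet7b (chr15:85707319-85707403, plus strand) show both cases, with the loop GGAG in capitals where there is one.
Mirlet7a-1: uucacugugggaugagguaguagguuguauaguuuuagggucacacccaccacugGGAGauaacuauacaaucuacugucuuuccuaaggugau
Mirlet7c-1: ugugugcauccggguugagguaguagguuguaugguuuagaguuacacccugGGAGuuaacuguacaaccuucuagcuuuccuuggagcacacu
Mirlet7b: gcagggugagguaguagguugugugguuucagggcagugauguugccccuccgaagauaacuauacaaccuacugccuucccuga
Mirlet7b, Mirlet7c-2 and Mir98 were the hairpins without the motif in the loop. A missing match says only that these letters are not there.

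The values below are log2 intensities, and a difference is the first group's mean minus the second's, given ± its limma SE, with n = 2 arrays in each group. A gene is said to rise, fall or be called where its p, adjusted over all 19938 genes of that comparison, lay below 0.05. The number of arrays limits the precision. Replicates differed by at least 2-fold at 1 gene in d-NSC, 23 in p-NSC_LF, 30 in mESC, 167 in p-NSC_L and 277 in CNS-NSC, so the last 2 groups had the widest spread. A level below the lower quartile of probe sets, 6.39 to 6.49 by array, is dim, and a difference from it is uncertain in size. The enzyme gene Hprt read 6.99 and 6.76 on the mESC arrays and at least 10.45 on the 8 others, a gene named after its values were seen, so line and culture cannot be told apart in comparisons with mESC.

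Marker lists were set beside the labels. The 10 pluripotency markers had a mean level of 12.22 in mESC, 12.33 in p-NSC_L and 12.33 in p-NSC_LF, then 9.78 in d-NSC and 7.07 in CNS-NSC. The 11 measured neural stem and progenitor markers stood at 8.76, 8.83 and 8.65 in the first 3 groups, at 10.93 in d-NSC and at 11.69 in CNS-NSC. Of the 10 pluripotency markers 1 was called between p-NSC_L and mESC, Tfcp2l1, which was higher (0.72 ± 0.10, adjusted p = 0.0012). Klf4 was called between the 2 primitive groups, higher in p-NSC_LF by 0.72 ± 0.10 (adjusted p = 0.0084) but not without either p-NSC_LF replicate (adjusted p = 0.13 and 0.057). In turn 7 of the 11 neural markers did not pass the test between p-NSC_L and mESC. The others were 3 higher and 1 lower, where 13.4% of all genes were called. One of the 3, Fabp7, was not called without mESC replicate 2 (0.59, adjusted p = 0.099). Nes, the intermediate filament of neural progenitors, named after its values were seen, read 7.26 and 6.94 in p-NSC_L against 10.04 and 9.84 in d-NSC.

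**Figure D1:**
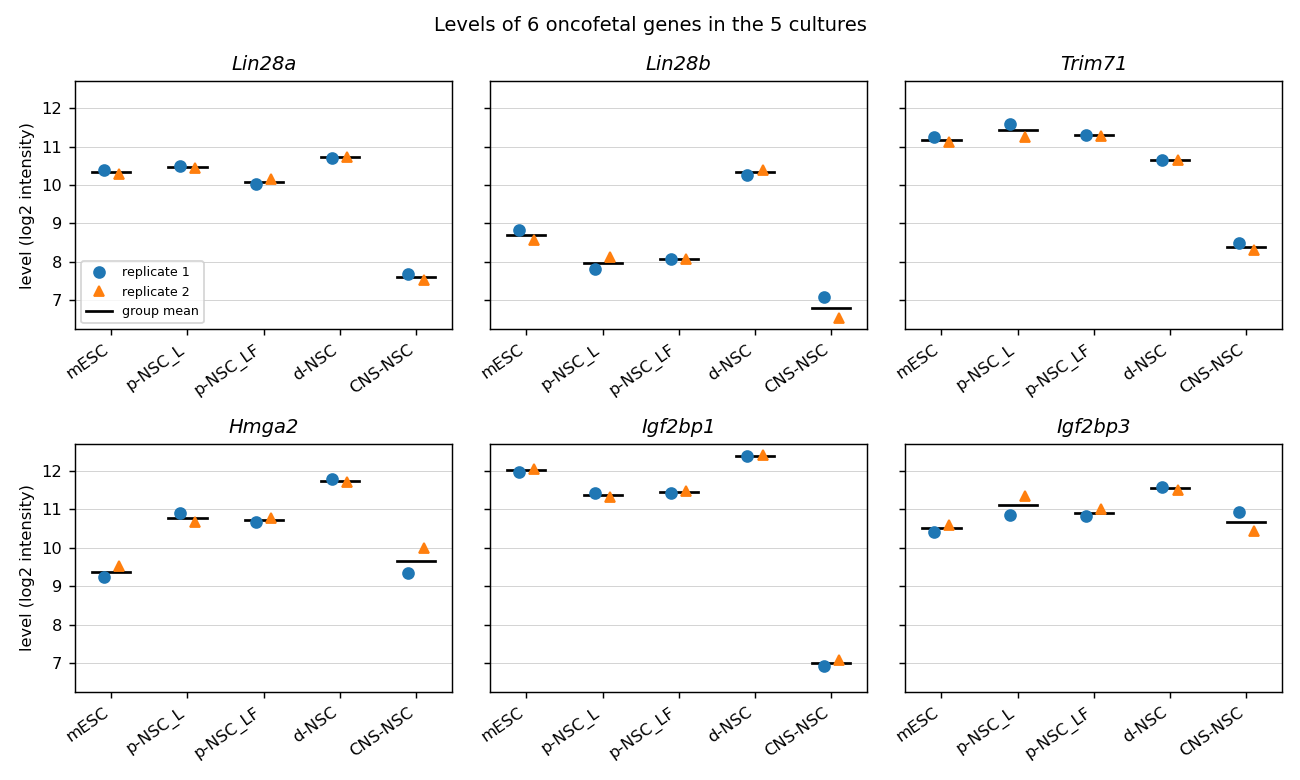
Level (log2 intensity) of the 6 measured oncofetal genes on each array of the 5 cultures, with replicate 1 as a circle, replicate 2 as a triangle and the group mean as a line. In d-NSC 5 of the 6 genes had their highest mean, and in CNS-NSC Igf2bp1 fell to 6.92 and 7.09.

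Lin28a, the paralogue that acts mainly in the cytoplasm, read 10.38 and 10.28 in mESC and 10.50 and 10.44 in p-NSC_L. It read 10.03 and 10.15 in p-NSC_LF, 10.71 and 10.74 in d-NSC, and 7.68 and 7.53 in CNS-NSC. The arrays of the 4 R1 groups lay between 10.03 and 10.74 and CNS-NSC lay apart, with no overlap. Lin28a was higher in d-NSC than in CNS-NSC by 3.13 ± 0.10, which is 8.74-fold (adjusted p = 1.8e-08). From p-NSC_LF to d-NSC it rose by 0.64 ± 0.10 (adjusted p = 6.8e-04), and above mESC it stood by 0.40 ± 0.10 (adjusted p = 0.011). The last call was lost without mESC replicate 2, d-NSC replicate 1 or d-NSC replicate 2 (0.35 to 0.41, adjusted p = 0.053 to 0.08). In the order d-NSC, p-NSC_L, mESC, p-NSC_LF, CNS-NSC, the last step alone was called, by 2.49 ± 0.10 (adjusted p = 2.7e-08).

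Lin28b, the paralogue known to sequester let-7 precursors in the nucleus as well, followed another course. It read 8.83 and 8.58 in mESC, 7.81 and 8.14 in p-NSC_L, and 8.08 and 8.08 in p-NSC_LF. It then read 10.27 and 10.39 in d-NSC and 7.08 and 6.54 in CNS-NSC. Both d-NSC arrays were above the 8 others and both CNS-NSC arrays below them. From p-NSC_LF to d-NSC Lin28b rose by 2.25 ± 0.18, which is 4.75-fold (adjusted p = 5.2e-06). It was higher in d-NSC than in mESC by 1.62 ± 0.18 (adjusted p = 5.3e-05) and than in CNS-NSC by 3.52 ± 0.18, which is 11.4-fold (adjusted p = 2.6e-07). In p-NSC_L it was lower than in mESC by -0.73 ± 0.18 (adjusted p = 0.024). That call was lost without mESC replicate 1, mESC replicate 2 or p-NSC_L replicate 1 (adjusted p = 0.17, 0.06 and 0.12). Among neighbours in its order of levels, d-NSC, mESC, p-NSC_LF, p-NSC_L and CNS-NSC, p-NSC_LF and p-NSC_L were not told apart (0.10 ± 0.18, adjusted p = 0.9). The step from mESC to p-NSC_LF was called (0.63 ± 0.18, adjusted p = 0.041), but not without any 1 of the 4 arrays of these groups (adjusted p up to 0.24).

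The difference of d-NSC from p-NSC_LF was 0.64 for Lin28a and 2.25 for Lin28b, and the difference between those differences was not tested. Promoter windows, the 250 bases before a listed start in the RefSeq table of GRCm38.p6, were searched for letters. For Lin28a, Lin28b and Igf2bp3 the listed start lies inside the span that RefSeq gives the gene, so other transcripts of these genes start farther upstream and their promoters were not analysed here. Lin28a had 7 CpG and Lin28b 6, near the 6 of the median promoter, while Trim71 had 17, Igf2bp3 21 and Hmga2 8. Promoters were listed for 7 of the 8 genes. The E-box CACGTG, the site of Myc family factors, which reads the same on both strands, was in the windows of Lin28b and Igf2bp3 and in 6.02% of 32851 promoter windows. CCAAT, on either strand, was in the same pair and in 33.8% of windows, and GGGCGG, on either strand, was in Hmga1, Hmga2, Igf2bp2 and Trim71 and in 32.7%. TATAAA, on either strand, was in none of the 7 genes' windows and in 12.4% of all windows. A match is a description of letters and not a site in use.

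Trim71, also called Lin41, read 11.25 and 11.11 in mESC, 11.58 and 11.26 in p-NSC_L and 11.31 and 11.28 in p-NSC_LF. It read 10.66 and 10.64 in d-NSC and 8.50 and 8.30 in CNS-NSC. The 6 arrays grown with Lif were the highest, d-NSC lay below them and CNS-NSC lowest, with no overlap between these sets. From p-NSC_LF to d-NSC Trim71 fell by 0.65 ± 0.13 (adjusted p = 0.0025), and against mESC the difference was -0.53 ± 0.13 (adjusted p = 0.0074). The call against mESC was lost without mESC replicate 1 (-0.46, adjusted p = 0.064). Trim71 was higher in d-NSC than in CNS-NSC by 2.25 ± 0.13 (4.76-fold, adjusted p = 5.8e-07). The 3 Lif groups were not told apart, the largest step being 0.24 ± 0.13 between p-NSC_L and mESC (adjusted p = 0.28). The pluripotency markers moved in the same order of groups, with mean levels of 9.78 in d-NSC and 7.07 in CNS-NSC, and their part in the Trim71 values was not tested.

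Hmga2 read 9.23 and 9.53 in mESC, 10.89 and 10.68 in p-NSC_L and 10.68 and 10.78 in p-NSC_LF. It read 11.78 and 11.70 in d-NSC and 9.34 and 9.98 in CNS-NSC. Its level was thus lowest in mESC and CNS-NSC, whose arrays overlapped, higher in both primitive groups and highest in d-NSC. It rose by 1.40 ± 0.19 from mESC to p-NSC_L, which is 2.64-fold (adjusted p = 0.0013), and by 1.02 ± 0.19 from p-NSC_LF to d-NSC (adjusted p = 0.0018). The difference of d-NSC from mESC came to 2.36 ± 0.19, or 5.14-fold (adjusted p = 6.5e-06), and that from CNS-NSC to 2.08 ± 0.19 (adjusted p = 1.7e-05). The primitive groups differed by 0.05 ± 0.19 (adjusted p = 0.96). CNS-NSC differed from mESC by 0.28 ± 0.19 (adjusted p = 0.28), a value that was -0.04 without CNS-NSC replicate 2 and 0.60 (adjusted p = 0.013) without CNS-NSC replicate 1.

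Embryonic fibroblasts are known to express Hmga2, and mESC were grown on a layer of them. The shares of all genes called were 13.4% from mESC to p-NSC_L and 38.6% from p-NSC_LF to d-NSC. Of the 15 fibroblast markers 5 rose and 2 fell from mESC to p-NSC_L, and 10 rose and 1 fell from p-NSC_LF to d-NSC. The 2 that fell, Thy1 and Fbln1, were not called without mESC replicate 1 (adjusted p = 0.12 and 0.1), nor was Thy1, the 1 that fell into d-NSC, without d-NSC replicate 2 (adjusted p = 0.073). Their mean level was 7.22 and 7.31 on the mESC arrays, 7.78 and 7.95 in p-NSC_L, 7.37 and 7.37 in p-NSC_LF, 8.21 and 8.12 in d-NSC, and 7.47 and 7.52 in CNS-NSC. Lum and Fap, 2 of these markers, lay below the lower quartile in all 5 groups. Dcn, the matrix proteoglycan decorin, read 6.06 and 6.48 in mESC and 8.79 and 10.41 in p-NSC_L. It read 7.28 and 7.24 in p-NSC_LF and 9.54 and 9.54 in d-NSC. Mmp3, a matrix protease, read 6.10 and 5.76, 8.58 and 9.35, 6.45 and 6.71, and 6.91 and 6.95 in these groups. From p-NSC_L to p-NSC_LF 2 of the 15 markers fell, Mmp3 and Dcn, and 0 rose, where 1.78% of all genes were called. Col1a1, a main fibroblast collagen named after its values were seen, read 8.21 and 8.24 in mESC, 8.58 and 8.28 in p-NSC_L and 8.44 and 8.48 in d-NSC. The part of such cells in the Hmga2 values was not tested, and in bulk RNA fewer cells of a type and less RNA per cell cannot be told apart.

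Igf2bp1, the zipcode-binding protein that carries Actb mRNA in neurites, had the widest span of the 6 genes. It read 11.96 and 12.05 in mESC, 11.41 and 11.32 in p-NSC_L, 11.41 and 11.47 in p-NSC_LF, 12.38 and 12.41 in d-NSC, and 6.92 and 7.09 in CNS-NSC. All 8 arrays of R1 cells were far above both CNS-NSC arrays. The difference between d-NSC and CNS-NSC was 5.39 ± 0.10, or 42-fold (adjusted p = 2.6e-09), and that between CNS-NSC and mESC was -5.0 ± 0.10 (adjusted p = 5.3e-10). Its second probe set read 9.77 and 9.66 in mESC, 10.14 and 10.12 in d-NSC, and 5.85 and 5.78 in CNS-NSC, the last below the lower quartile of the arrays. Within R1 cells Igf2bp1 fell by 0.64 ± 0.10 from mESC to p-NSC_L (adjusted p = 0.003) and rose by 0.95 ± 0.10 from p-NSC_LF to d-NSC (adjusted p = 4.5e-05). It ended 0.39 ± 0.10 above mESC (adjusted p = 0.012), a call lost without mESC replicate 1 or either d-NSC replicate (0.34 to 0.40, adjusted p = 0.059 to 0.086).

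Igf2bp3, the paralogue found in many tumours, varied least. It read 10.41 and 10.60 in mESC, 10.85 and 11.34 in p-NSC_L, 10.82 and 11.01 in p-NSC_LF, a mean of 11.54 ± 0.06 (SD, n = 2) in d-NSC, and 10.92 and 10.43 in CNS-NSC. The d-NSC arrays were the highest, and the CNS-NSC arrays overlapped those of mESC. Igf2bp3 was higher in d-NSC than in mESC by 1.04 ± 0.19 (2.05-fold, adjusted p = 0.0015) and than in CNS-NSC by 0.86 ± 0.19 (adjusted p = 0.0056). From p-NSC_LF to d-NSC it rose by 0.63 ± 0.19 (adjusted p = 0.025), but not without any 1 of the 4 arrays (0.53 to 0.72, adjusted p = 0.053 to 0.15). Of its 4 neighbouring pairs in the order d-NSC, p-NSC_L, p-NSC_LF, CNS-NSC and mESC none was called. CNS-NSC differed from mESC by 0.17 ± 0.19 (adjusted p = 0.52), where Igf2bp1 differed by -5.0 ± 0.10, so the paralogues' group means spanned 1.04 and 5.39.

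**Figure D2:**
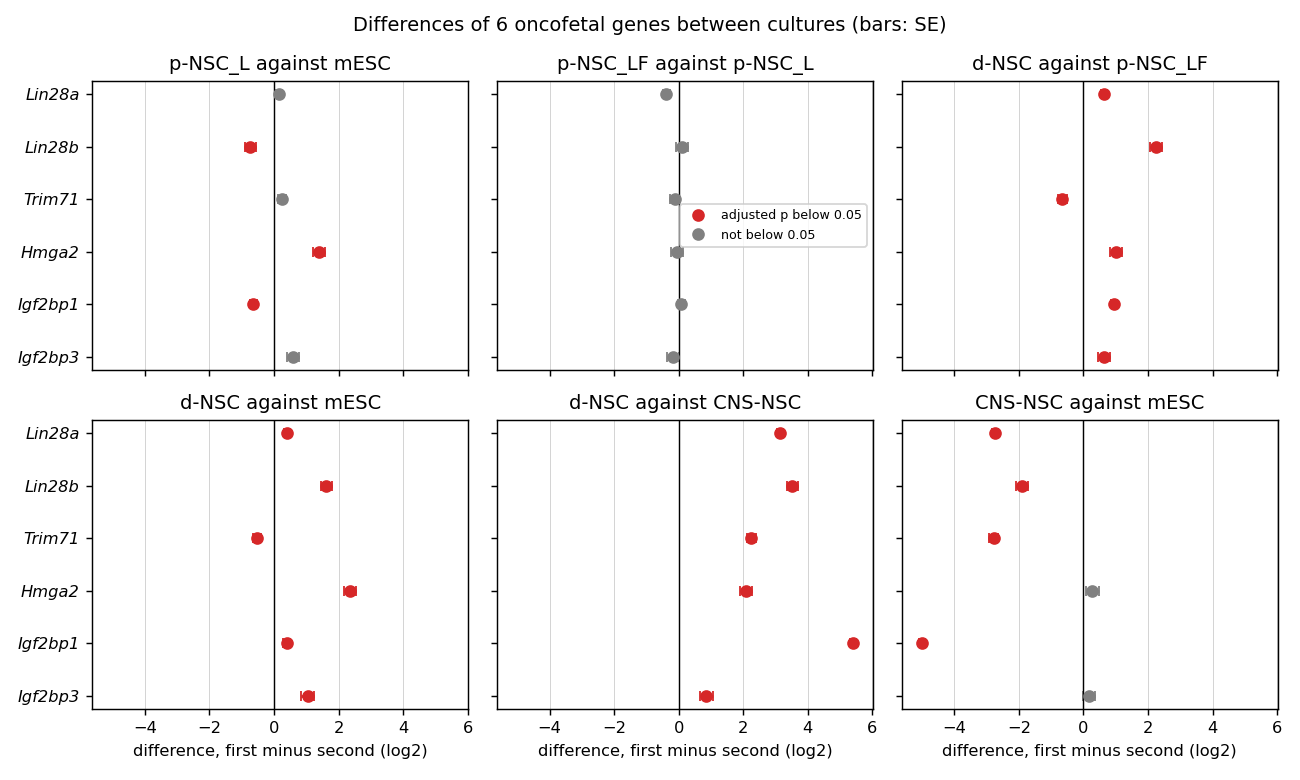
Difference ± SE (log2, first group minus second, n = 2 arrays per group) of the 6 genes in 6 comparisons, in red where the adjusted p lay below 0.05. Passage of primitive NSC gave no red point, while d-NSC against CNS-NSC placed all 6 genes above 0, from 0.86 to 5.39.

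Set out by step, primary sphere formation (p-NSC_L against mESC) called 3 of the 6 genes, Hmga2 higher and Lin28b and Igf2bp1 lower, where 13.4% of all genes were called. With the fragile Lin28b value set aside, Hmga2 and Igf2bp1 remained called under each alternative run. Igf2bp3 differed by 0.59 ± 0.19 (adjusted p = 0.073) and was called without p-NSC_L replicate 1 (0.84, adjusted p = 0.028). Passage with FGF and heparin (p-NSC_LF against p-NSC_L) called 0 of 6, against 1.78% of all genes. Lin28a had the lowest p of the 6 there, at -0.38 ± 0.10 (adjusted p = 0.11 by limma), and it alone of the 6 had an unadjusted limma p below 0.05.

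The step to definitive NSC (d-NSC against p-NSC_LF), whose medium has no Lif stated, adds EGF and B27 and has FGF at 20 in place of 10 ng/ml, called all 6 genes, 5 higher and Trim71 lower. Of all genes 38.6% were called in either direction and 19.3% were called higher. The median difference of the 6 was 0.79, and that of all genes -0.01. Igf2bp3 was the gene of the 6 whose call was lost when 1 array was left out, as given above, so that 5 were then called. Against p-NSC_L, the primary spheres, d-NSC called 4 of 6: Lin28b at 2.35 ± 0.18, Igf2bp1 at 1.03 ± 0.10, Hmga2 at 0.96 ± 0.19 and Trim71 at -0.77 ± 0.13, where 39.9% of genes were called. Igf2bp3 at 0.45 ± 0.19 was called there without p-NSC_L replicate 2 (0.70, adjusted p = 0.022). The p-NSC_LF and p-NSC_L comparisons share the d-NSC arrays.

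Definitive NSC against ES cells (d-NSC against mESC) called all 6, again 5 higher and Trim71 lower, against 40.5% of all genes called and 20.7% called higher. The count was 4 without mESC replicate 1, d-NSC replicate 1 or d-NSC replicate 2, because the calls near the threshold were those of Lin28a, Igf2bp1 and Trim71. Hmga2, Lin28b and Igf2bp3 remained called without each array in turn. The passaged primitive cells (p-NSC_LF against mESC) called 3 of 6, against 15.3% of genes: Hmga2 at 1.35 ± 0.19, Igf2bp1 at -0.56 ± 0.10 and Lin28b at -0.63 ± 0.18. Of these Igf2bp1 lost its call without mESC replicate 2 or p-NSC_LF replicate 1 (adjusted p up to 0.056), and Lin28b without any 1 of the 4 arrays.

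Definitive NSC against brain NSC (d-NSC against CNS-NSC) called all 6 genes and all were higher in d-NSC, where 34.0% of genes were called and 17.6% were called higher. The median difference was 2.69 for the 6 and -0.01 for all genes. These calls were kept under each alternative run, with Igf2bp3 the nearest to the threshold (adjusted p up to 0.044). The groups differ in strain, in B27 as stated and in origin (129/Sv line against ICR embryo), and these cannot be told apart. Of the 10 pluripotency markers 9 were higher in d-NSC than in CNS-NSC and 0 lower, with a median difference of 2.97. The part of these markers' cells in the values of the 6 genes was not tested. CNS-NSC against mESC called 4 of 6, all lower: Igf2bp1, Trim71 at -2.78 ± 0.13, Lin28a at -2.73 ± 0.10 and Lin28b at -1.90 ± 0.18. Of all genes 43.8% were called there and 22.1% were called lower. Primary and passaged primitive NSC were each above CNS-NSC at 5 of 6 genes, all but Igf2bp3, where 43.6% and 41.9% of genes were called and 21.7% and 21.3% were called higher. Igf2bp3 differed by 0.42 ± 0.19 between p-NSC_L and CNS-NSC (adjusted p = 0.11), and was called without p-NSC_L replicate 1 (0.67, adjusted p = 0.023) or CNS-NSC replicate 1 (0.66, adjusted p = 0.025).

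The levels of markers of other cell types also differed between these groups. The counts below are for p-NSC_LF to d-NSC, where 38.6% of all genes were called and 19.3% were called higher. Neuronal markers, as genes of a cell type that can also carry Igf2bp1, had a mean level of 7.85 in p-NSC_L, 7.70 in p-NSC_LF, 9.18 in d-NSC and 8.56 in CNS-NSC, and 9 of 10 rose and 1 fell from p-NSC_LF to d-NSC. Neural crest markers stood at 7.81 in p-NSC_LF, 8.73 in d-NSC and 8.36 in CNS-NSC, with 5 of 8 higher and 2 lower in that step. Primitive and visceral endoderm markers stood at 8.24, 8.98 and 7.94 in these groups, with 7 of 12 higher and 1 lower, Lama1, whose call was lost without any 1 of the 4 arrays (adjusted p = 0.059 to 0.072). Mesoderm markers stood at 7.72, 8.03 and 7.12, with 2 of 7 higher and 1 lower. Oligodendrocyte markers read 9.93 and 8.95 on the CNS-NSC arrays and at most 7.82 on the others, and astroglial markers had a mean of 7.63 in CNS-NSC and 6.78 in d-NSC. The endoderm marker Ttr lay below the lower quartile in 4 of the 5 groups, and Afp and Ttr both did in mESC. The part of any of these cells in the levels of the 6 genes was not tested.

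**Figure D3:**
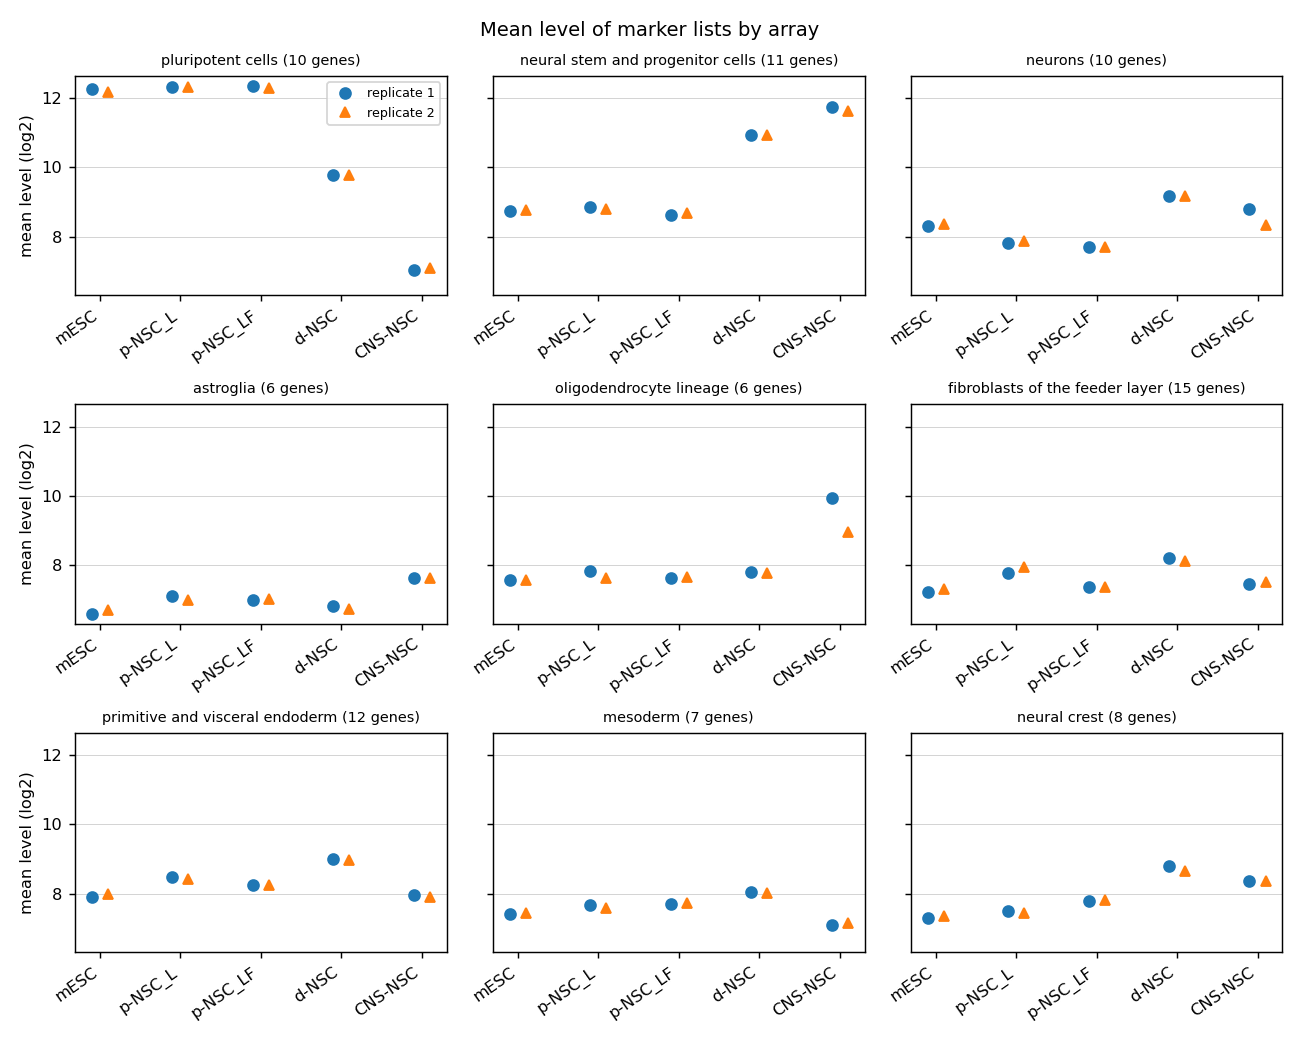
Mean level (log2 intensity) of each of 9 marker lists on each array, replicate 1 as a circle and replicate 2 as a triangle. Pluripotency markers stayed near 12 in the first 3 groups and neural stem and progenitor markers reached 10.93 in d-NSC and 11.69 in CNS-NSC, while the CNS-NSC replicates parted at the oligodendrocyte list.

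Around Lin28 stand the enzymes that make or destroy let-7. Of 21 measured genes of let-7 processing and Lin28 partners, 10 rose and 1 fell from p-NSC_LF to d-NSC, with a median difference of 0.06, and 11 were higher and 4 lower in d-NSC than in CNS-NSC. Over all genes 38.6% and 34.0% were called in these comparisons, and 19.3% and 17.6% were called higher. Tut4, the uridylyl transferase that Lin28a recruits to let-7 precursors, read 10.91 and 11.08 in p-NSC_LF, 11.90 and 11.94 in d-NSC, and 11.06 and 10.97 in CNS-NSC. Both d-NSC arrays were thus the highest of these. Msi1, a neural RNA-binding protein known to work with Lin28 and also on the neural stem marker list, rose by 2.49 ± 0.16 (adjusted p = 1.2e-06), and Ago1, an effector of microRNA repression, by 0.97 ± 0.10. The gene that fell was Trim25, an RNA-binding ubiquitin ligase and cofactor of Lin28a and Tut4. It read 10.56 and 10.65 in p-NSC_LF, 8.06 and 8.02 in d-NSC, and 6.80 and 6.51 in CNS-NSC, so that d-NSC lay between. It fell by 2.57 ± 0.12 into d-NSC (adjusted p = 1.6e-07) and was 1.39 ± 0.12 higher there than in CNS-NSC (adjusted p = 1.0e-05). Tut4 was named after its values were seen. The counts against CNS-NSC were 7 higher and 1 lower without d-NSC replicate 1, and 2 lower without any 1 of the 3 other arrays.

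Shares of all genes called were 43.8% between CNS-NSC and mESC, 13.4% between p-NSC_L and mESC and 40.5% between d-NSC and mESC. Between mESC and CNS-NSC 8 of the 21 let-7 processing genes were higher and 8 lower. The lower ones included Trim25 at -3.89 ± 0.12 and Drosha, the nuclear enzyme that cuts primary microRNAs, at -0.70 ± 0.10, and the higher ones Ago4 at 1.42 ± 0.12. The 8 lower became 4 without mESC replicate 1 or CNS-NSC replicate 1 and 5 without mESC replicate 2, and 4 after cyclic loess normalization or with the other groups left out. From mESC to p-NSC_L 2 rose and none fell, but without mESC replicate 1, mESC replicate 2 or p-NSC_L replicate 1 none rose. The count there was 4 after cyclic loess normalization, under a trended prior or without dim genes, and 0 when only these groups were fitted. From mESC to d-NSC 10 rose and 2 fell, or 6 rose without mESC replicate 1 or d-NSC replicate 1, and 1 fell without any 1 of the 4 arrays.

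The array also holds probe sets for hairpin genes. They read RNA that carries the hairpin and do not measure the processed microRNA. Of the 18 let-7, miR-98, miR-99, miR-100 and miR-125 hairpin genes listed, 16 had a value and 7 to 9 of these were below the lower quartile in a group. Their counts are therefore weak: 6 rose and 1 fell from p-NSC_LF to d-NSC, where 38.6% of all genes were called. With the dimmer 50% of genes left out 0 did either. That setting drops every gene whose mean lies below the median gene, 8.1, most of these 16 among them. Its counts here thus come from few genes still tested and do not show that calls failed. The shares of all genes called were 34.0% for d-NSC against CNS-NSC, 40.5% for d-NSC against mESC and 43.8% for CNS-NSC against mESC. Between d-NSC and CNS-NSC 4 were higher and 4 lower, or 0 of either with dim genes left out, and at most 2 in each direction without d-NSC replicate 1, d-NSC replicate 2 or CNS-NSC replicate 1, and 1 lower without CNS-NSC replicate 2. From mESC 7 were higher in d-NSC (3 or 4 without any 1 of the 4 arrays, 1 with dim genes left out), and 5 were higher and 1 lower in CNS-NSC (3 and 0 without mESC replicate 2 or CNS-NSC replicate 2, and 0 of either with dim genes left out). Between p-NSC_L and mESC 0 of 16 were called, though 3 were higher without p-NSC_L replicate 1 and 1 without mESC replicate 1 or p-NSC_L replicate 2.

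Mir99a and Mirlet7c-1 had the largest called rises of these genes into d-NSC, and their hairpins lie 656 bases apart on chromosome 16. Mir99a read 5.26 and 5.28 in mESC, 5.53 and 5.44 in p-NSC_LF, 6.67 and 6.57 in d-NSC, and 8.13 and 8.0 in CNS-NSC. It rose by 1.13 ± 0.14 into d-NSC (adjusted p = 1.4e-04) and was 1.44 ± 0.14 lower there than in CNS-NSC on the log2 scale (difference -1.44, adjusted p = 3.1e-05). Mirlet7c-1, one of the hairpins with GGAG in its loop, read 5.01 and 4.11 in mESC, 4.72 and 4.54 in p-NSC_LF, 5.77 and 5.73 in d-NSC, and 6.33 and 6.56 in CNS-NSC. It was higher in CNS-NSC than in mESC by 1.88 ± 0.23 (adjusted p = 7.6e-05), from levels that were dim in all groups. Its difference between d-NSC and CNS-NSC (-0.69 ± 0.23, adjusted p = 0.041) was not called without any 1 of the 4 arrays, nor after cyclic loess normalization. Mirlet7g, named after its values were seen, read 6.34 and 6.49 in d-NSC and 6.55 and 6.02 in CNS-NSC.

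**Figure D4:**
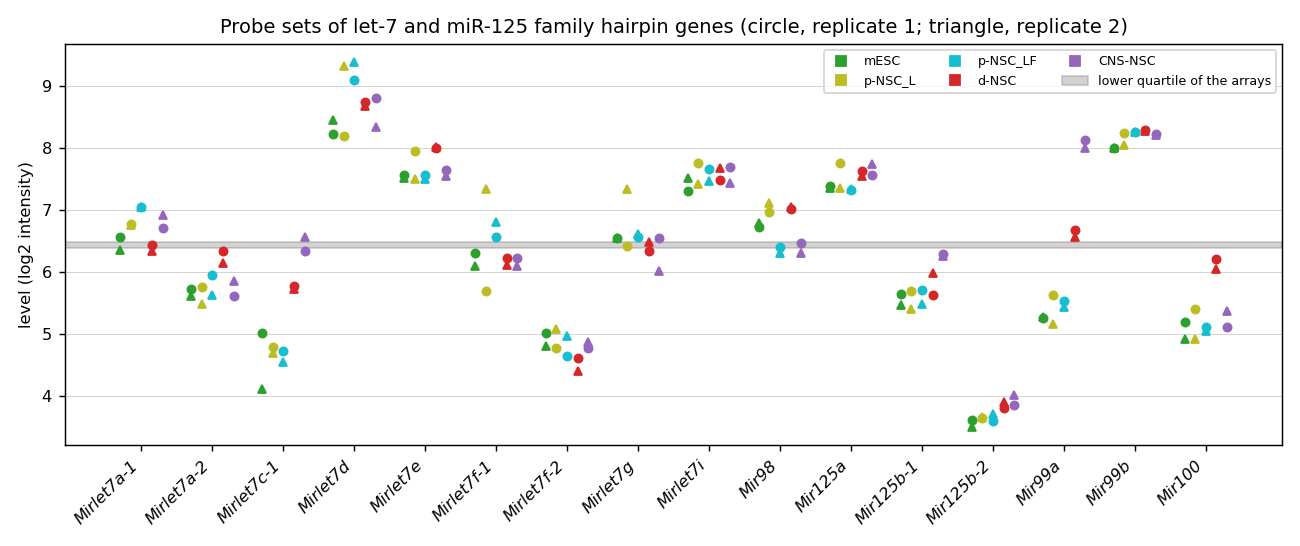
Level (log2 intensity) of 16 probe sets of let-7, miR-99, miR-100 and miR-125 hairpin genes by array, coloured by culture, with the range of the arrays' lower quartiles as a grey band. Mir99a rises from below the band to 8.13 and 8.0 in CNS-NSC, and many of the others lie at or below the band.

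Other genes that let-7 is known to repress were followed as a list of 27, of which 24 were measured. From p-NSC_LF to d-NSC 17 rose and 3 fell, with a median difference of 0.72, against -0.01 for all genes. In that step 38.6% of all genes were called and 19.3% were called higher. Ccnd2, cyclin D2 of the G1 phase, read 8.04 and 8.36 in p-NSC_LF, 13.43 and 13.46 in d-NSC, and 13.70 and 13.63 in CNS-NSC. It rose by 5.24 ± 0.16 (adjusted p = 2.5e-08), and the homeobox gene Pbx3 rose by 3.37 ± 0.11 (adjusted p = 3.1e-08). Dna2, a nuclease of DNA replication, fell by 0.62 ± 0.10 (adjusted p = 8.6e-04). Of the 3 that fell 1 was called without p-NSC_LF replicate 1. From mESC to p-NSC_L the list went the other way, with 7 lower and 1 higher, where 6.79% of all genes were called lower. Pbx3 fell there (-1.83 ± 0.11), as did Ccnd1, cyclin D1 (-1.41 ± 0.14), while Thbs1, the matrix protein thrombospondin, rose by 1.04 ± 0.14.

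Against CNS-NSC the same 24 genes were split, with 11 higher in d-NSC, 7 lower and a median of 0.26. There 34.0% of all genes were called and 17.6% were called higher. Mycn, the Myc family member of neural progenitors, read 10.48 and 10.34 in d-NSC and 6.78 and 7.48 in CNS-NSC, a difference of 3.28 ± 0.20 (adjusted p = 8.2e-07). Arid3b, a DNA-binding protein, read 10.32 and 10.21 in d-NSC against 7.40 and 7.26, a difference of 2.94 ± 0.10. Myc went the other way, at 10.21 and 10.34 in d-NSC and 12.29 and 12.41 in CNS-NSC (-2.07 ± 0.18, adjusted p = 1.0e-05), as did Nr2e1, the neural stem cell receptor Tlx, at -1.70 ± 0.11. These 4 genes were named for the largest called differences of the list in this comparison. That their arrays did not overlap between d-NSC and CNS-NSC therefore adds no support. The listed targets were not uniformly higher in d-NSC, where Lin28a and Lin28b were higher, and a link between them was not tested. From mESC 15 rose and 3 fell into d-NSC, and 12 were higher and 9 lower in CNS-NSC. The shares of all genes called were 40.5% and 43.8%.

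Of 15 fetal growth genes 14 were measured. From p-NSC_LF to d-NSC 9 rose and 2 fell, with a median difference of 1.24, and 11 of 14 were higher in d-NSC than in CNS-NSC with none lower, at a median of 2.77. Over all genes 38.6% and 34.0% were called in these comparisons, and 19.3% and 17.6% were called higher. Igf2, the fetal growth factor whose mRNA gives the Igf2bp proteins their name, read 8.27 and 8.14 in p-NSC_LF, 12.31 and 12.21 in d-NSC, and 8.17 and 8.21 in CNS-NSC. The d-NSC arrays stood alone, at 4.06 ± 0.11 above p-NSC_LF (adjusted p = 1.8e-08) and 4.07 ± 0.11 above CNS-NSC (adjusted p = 6.5e-09). Gpc3, an oncofetal cell-surface proteoglycan, read 12.50 and 12.55 in d-NSC and 8.02 and 7.46 in CNS-NSC, a difference of 4.78 ± 0.16. Plag1, a zinc-finger activator of Igf2, read 9.93 and 9.89 in d-NSC and 5.67 and 5.72 in CNS-NSC, the latter dim, a difference of 4.21 ± 0.16. The 2 genes that fell from p-NSC_LF were Epcam at -0.61 ± 0.14 and Sall4 at -0.33 ± 0.11, and their number was 1 without p-NSC_LF replicate 1, p-NSC_LF replicate 2 or d-NSC replicate 2 and 0 without d-NSC replicate 1. Mycn stands on this list and on that of let-7 targets. Igf2 stands on this list and on that of mRNAs bound by Igf2bp proteins, and Myc on the latter and on that of let-7 targets. Such genes are counted in each of their lists.

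In the other comparisons this list was mixed. The share of all genes called was 1.78% for p-NSC_LF against p-NSC_L and 13.4% for p-NSC_L against mESC. It was 40.5% for d-NSC against mESC and 43.8% for CNS-NSC against mESC. From p-NSC_L to p-NSC_LF 2 rose and 1 fell, but 0 did either without p-NSC_LF replicate 1 or p-NSC_LF replicate 2. From mESC to p-NSC_L 2 rose and 2 fell, with Mest, an imprinted gene of growing tissue, at -1.37 ± 0.11. None rose without mESC replicate 1 or mESC replicate 2, 1 rose without p-NSC_L replicate 1, and 1 fell without mESC replicate 2. From mESC to d-NSC 8 rose and 1 fell, or 0 fell without any 1 of the 4 arrays. Between CNS-NSC and mESC 2 were higher and 6 lower, with Sall4, a zinc-finger factor of ES cells and fetal liver, at -4.20 ± 0.11, and 1 was higher without either mESC replicate.

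**Figure D5:**
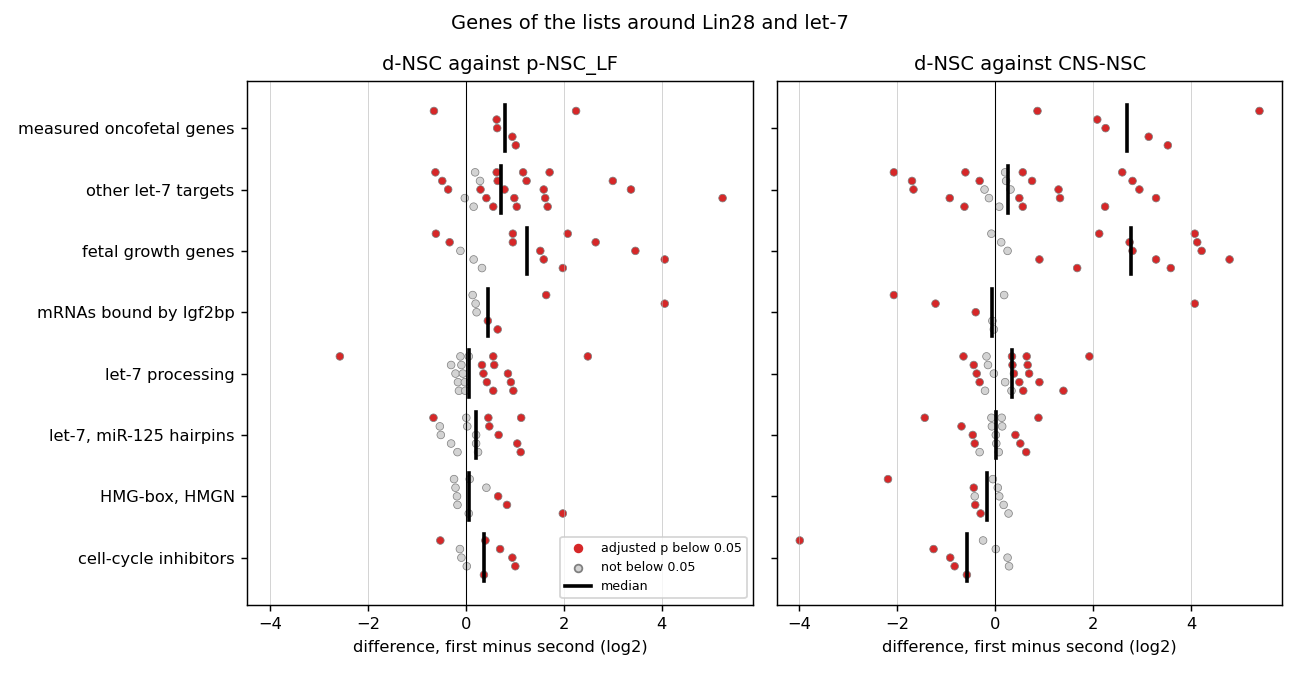
Difference (log2, first group minus second) of each measured gene of the lists in d-NSC against p-NSC_LF and d-NSC against CNS-NSC, red where the adjusted p lay below 0.05, with the list median as a bar. Oncofetal and fetal growth genes lie mostly above 0 in both panels, while the other let-7 targets have a median of 0.72 in the first and 0.26 in the second.

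The remaining lists give the surroundings of Hmga2 and the Igf2bp genes. In the comparisons below 38.6% of all genes were called from p-NSC_LF to d-NSC and 34.0% between d-NSC and CNS-NSC. Among 7 mRNAs known to be bound by Igf2bp proteins 4 rose and none fell from p-NSC_LF to d-NSC (2 without p-NSC_LF replicate 1), among them Igf2 and the hyaluronan receptor Cd44 (1.64 ± 0.34, adjusted p = 0.0033). Against CNS-NSC 1 was higher in d-NSC, Igf2, and 3 were lower (1 without d-NSC replicate 2 or with the other groups left out). Among 18 RNA-binding proteins related to or found with Igf2bp 4 rose and 3 fell in that step to d-NSC, or 1 or 2 and 1 without any 1 of the 4 arrays. Their number called in the step to d-NSC lay near the share of all genes. The mean level of these 18 lay between 12.10 and 12.20 in all 5 groups. From p-NSC_LF to d-NSC Stau1 rose by 0.81 ± 0.10 (limma adjusted p = 1.4e-04). Fxr1, the relative of the fragile X protein, fell by 0.75 ± 0.12 (limma adjusted p = 6.1e-04).

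Among 10 other HMG-box and HMGN proteins 3 rose and none fell from p-NSC_LF to d-NSC, led by Hmgb3 at 1.98 ± 0.17 (adjusted p = 7.9e-06). In that step 38.6% of all genes were called and 19.3% were called higher. Hmgb3 read 8.94 and 8.68 in p-NSC_LF, 10.68 and 10.91 in d-NSC, and 11.18 and 11.23 in CNS-NSC. Hmgn3, a nucleosome-binding protein, read 6.96 and 7.28 in d-NSC against 9.15 and 9.47 in CNS-NSC (-2.19 ± 0.16, adjusted p = 2.9e-06). Both were thus at their highest in CNS-NSC, where Hmga2 was lower than in d-NSC. Of the 10, 4 were lower in d-NSC than in CNS-NSC, a count that was smaller without d-NSC replicate 1 or CNS-NSC replicate 2. None was higher, though 1 was under quantile normalization or with dim genes left out. In that comparison 34.0% of all genes were called.

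Hmga2 is known to restrain the cell-cycle inhibitor locus Cdkn2a, a link that was not tested here. Hmga2 rose from p-NSC_LF to d-NSC and from mESC to p-NSC_L. Cdkn2a read 8.36 and 8.39 in p-NSC_LF, 7.85 and 7.85 in d-NSC, and 8.50 and 8.36 in CNS-NSC. It fell by 0.52 ± 0.10 into d-NSC (adjusted p = 0.0015), and it was higher in p-NSC_L than in mESC by 0.51 ± 0.10 (adjusted p = 0.0067). The latter call was lost without mESC replicate 1 (0.51, adjusted p = 0.054). Of the 9 measured cell-cycle inhibitors and their regulators 5 rose and 1 fell from p-NSC_LF to d-NSC (3 rose without d-NSC replicate 1 or either p-NSC_LF replicate). None was higher and 5 were lower in d-NSC than in CNS-NSC, with Cdkn2c, the inhibitor p18, at 7.01 and 6.86 against 10.78 and 11.07 (-3.99 ± 0.13, adjusted p = 1.6e-08). With dim genes left out 3 were lower, but that setting removes Cdkn2c, whose mean lies below the median gene. Over all genes 38.6% were called from p-NSC_LF to d-NSC and 34.0% between d-NSC and CNS-NSC. Of the 3 TRIM-NHL relatives of Trim71, Trim2, Trim3 and Trim32, none was called from p-NSC_LF to d-NSC, though Trim32 was when only these groups were fitted (0.36, adjusted p = 0.027). Between d-NSC and CNS-NSC 1 of the 3 was higher in d-NSC, Trim2 (0.51 ± 0.13). The lower ones were Trim3 (-0.71 ± 0.12) and Trim32 (-0.54 ± 0.16), where Trim71 was higher by 2.25 ± 0.13. Without CNS-NSC replicate 1 the differences of Trim2 and Trim32 were 0.36 and -0.33.

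The likeness of profiles was described as the root mean square difference between profiles centred on their own mean over the 10 arrays, among 5025 named genes whose group means spanned at least 1 log2 unit and reached the median gene. Among the 6 genes Lin28a and Trim71 were closest, at 0.44, and Igf2bp1 and Igf2bp3 farthest apart, at 1.84. Lin28a and Lin28b differed by 0.78. Outside them Lin28a was most like Arid3b (0.22), which is on the let-7 target list, then Camsap3 (0.23) and Map7d3 (0.24), both microtubule proteins. Lin28b was most like the neurofilament gene Nefl (0.32), the endocytic receptor gene Lrp2 (0.34) and the potassium channel gene Kcnt2 (0.36). Trim71 was most like the actin cross-linker Actn1 (0.14), Slc25a13 (0.17) and the Polycomb gene Cbx7 (0.19). Hmga2 was most like Mcoln3 (0.31), Fstl1 (0.34) and the homeobox gene Irx2 (0.34). Igf2bp1 was most like the imprinted gene Zdbf2 (0.52), Emb (0.55) and the amino acid transporter Slc7a7 (0.57), and Igf2bp3 like the splicing factor Rbm22 (0.18), Akna (0.18) and Mmp9 (0.19). These are descriptions over 10 arrays of 5 groups that share their normalisation.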

How the data were processed

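Each of 10 mouse cultures was read on 1 Affymetrix array. The table deposited by the authors gives log2 values of 35556 probe sets, made with RMA and Partek (no version stated) per the submitters' processing notes. RMA subtracts background, makes the arrays' distributions alike and compresses differences of dim probe sets. No header states the log base, which was read from the values (2.07 to 14.74). No genome build or batch is stated in those sources. GEO's platform annotation gave 1 symbol for 21789 probe sets, several for 1621 and none for 12146. The probe set with the highest mean was kept for each of 19938 genes. No value was rescaled or filtered in the main analysis.

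The 10 arrays entered 1 linear model with a mean for each culture (limma 3.58.1 under R 4.3.3, with 5 residual and 4.9 prior degrees of freedom). Benjamini-Hochberg adjustment covered all genes in each comparison. As the 2 samples of a culture are called biological replicates with no further detail, p measures the spread between such replicates alone. That spread is 1 estimate per gene over all 5 cultures, drawn toward that of the other genes. Each comparison thus carries the spread of every culture. The fit was tested on simulated data. Sequences came from RefSeq tables of GRCm38.p6 and motifs were counted with Python 3.11.15 and pandas 2.3.3. Figures used matplotlib 3.10.9. The members and gene lists were chosen with earlier results of these data known. From each list at most 2 called genes in each direction with the largest differences were named per comparison, or, with none called, the gene that differed most, and per-array values are given for a part of them. Genes outside this rule are said to be named after their values were seen. The alternatives were quantile and cyclic loess normalization, leaving out the dimmer 50% of genes, the mean of all probe sets, only the 2 groups compared, a trended prior, the replicate number as a block, and each array left out.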

Additional observations from a re-analysis of the deposited data

How the results depend on the processing

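The count of called genes among the 6 did not change in any of the 6 comparisons under quantile normalization, cyclic loess normalization, the dimmer 50% left out, the mean of all probe sets, only the 2 groups compared or a trended prior. Leaving out 1 array gave 2 to 3 called for p-NSC_L against mESC, 0 for p-NSC_LF against p-NSC_L, 5 for d-NSC against p-NSC_LF, 4 to 5 for d-NSC against mESC, 6 for d-NSC against CNS-NSC and 4 to 5 for CNS-NSC against mESC. The alternatives for the order of levels, the list counts and the other 4 comparisons were chosen after seeing the data. Of 24 neighbouring pairs in the order of levels 11 were called, and 8 to 12 under the alternatives. Differences that were not called changed sign without 1 array, and the cause was not tested. In p-NSC_LF against p-NSC_L Lin28b ran from -0.06 to 0.27, Hmga2 from -0.16 to 0.05, Igf2bp3 from -0.43 to 0.07 and Trim71 from -0.29 to 0.04. In CNS-NSC against mESC Hmga2 ran from -0.04 to 0.60 and Igf2bp3 from -0.07 to 0.42. Igf2bp3 in p-NSC_LF against CNS-NSC ran from -0.01 to 0.48. The replicate block left the counts at 3, 0, 6, 6, 6 and 4 and changed no call among the 6 genes in these comparisons. It did call Trim32, of the list genes, in d-NSC against p-NSC_LF (0.36, adjusted p = 0.048). The numbers share no stated origin, and same-numbered arrays' deviations correlated at -0.107 to 0.375 between groups, so they were not taken as pairs. Among the other 4 comparisons Lin28a was called between d-NSC and p-NSC_L after cyclic loess normalization (adjusted p = 0.028) and with dim genes left out (adjusted p = 0.04), and Igf2bp3 between p-NSC_LF and mESC with only those groups compared (0.41, adjusted p = 0.038). With 2 arrays per group, probe sets near background such as the let-7 hairpins give no firm size.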
